A study of Homo sapiens with 4 samples.

Results

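The cluster of miR-183, miR-96 and miR-182 was examined in the miRNA sequencing (miR-seq) of U-251 cells, an established human glioblastoma cell line. Its members were taken from the count table as the rows named for miR-183, miR-96 or miR-182, with or without an arm. This gave 3 of the 746 names, namely miR-183-5p, miR-96-5p and miR-182-5p. The cluster was selected on counts and blank cells of these same libraries that were already known. Its levels, ratios and blanks are therefore given as a description and carry no test. The data comprised 4 libraries, which formed 1 group of biological replicates. All 4 came from wild-type U-251 cells grown in DMEM with FBS and given the vehicle DMSO before RNA extraction, per the labels, for which neither a dose nor a time was stated. The study describes these cells as being under basal conditions, and the sample titles name no irradiation. With 1 group of 1 cell line, no comparison between conditions was possible. Whether the libraries carry miRNAs that define U-251 cells was not tested.

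These miRNAs are cut from hairpins that are transcribed together as 1 polycistronic transcript. The cluster is best known from sensory organs, where it is abundant in photoreceptors and hair cells, and mutations in the seed of miR-96 cause inherited hearing loss. It is also raised in many carcinomas. Among known targets, FOXO transcription factors are repressed by its members, and miR-182 represses BRCA1, a protein of homologous recombination repair.

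The mature sequences are given here because the members differ in the seed, which is the stretch that pairs with target mRNAs, and because miR-1271-5p carries the seed of miR-96-5p. Sequences are from RefSeq on GRCh38.p14, written 5′ to 3′, and the capitals mark bases 2 to 8.
miR-183-5p: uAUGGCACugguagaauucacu
miR-96-5p: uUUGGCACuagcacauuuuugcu
miR-182-5p: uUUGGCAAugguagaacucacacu
miR-1271-5p: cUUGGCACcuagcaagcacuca

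Within positions 1 to 8, counted from the 5′ end, miR-96-5p and miR-182-5p differed only by C8A, with the base of miR-96-5p given first. They thus shared bases 2 to 7 (UUGGCA). From miR-183-5p to miR-96-5p the only change in these positions was A2U, and from miR-183-5p to miR-182-5p there were A2U and C8A. After position 8 the likeness ran otherwise. Placed base by base without gaps, miR-183-5p and miR-182-5p were identical there at 12 of 14 positions, against 6 of 14 for miR-183-5p with miR-96-5p and 5 of 15 for miR-96-5p with miR-182-5p. The longest run common to miR-183-5p and miR-182-5p was ugguagaa, 8 bases long. Of the other human miRNAs in the RefSeq table, only miR-1271-5p shared bases 2 to 8 with miR-96-5p, and none shared them with miR-183-5p or miR-182-5p.

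Each member matched a single hairpin gene in GENCODE on GRCh38, the build (hg38) to which the authors mapped. All 3 lie on the minus strand of chromosome 7. MIR183 spans 129774905 to 129775014, MIR96 spans 129774692 to 129774769 and MIR182 spans 129770383 to 129770492. In the direction of transcription MIR183 comes first, MIR96 follows after 135 bases and MIR182 after another 4199. The hairpins lie in an intron of 1 of the 5 annotated transcripts of a long non-coding gene on the same strand, ENSG00000286380, and no annotated exon of it overlaps them. The nearest protein-coding genes are NRF1, whose end is 13300 bases from MIR182, and UBE2H, whose nearer edge is 55717 bases from MIR183. Each mature sequence occurred exactly once in the assembled chromosomes, on either strand, at its own hairpin. The counts of the members were whole in each library that listed them, whereas 40 names of the table had values that were not whole. No name of the 3p arm of these hairpins was among the rows, and the table as a whole held 18 names of that arm against 538 of the 5p arm. Whether reads of the 3p arm entered the counts of the 5p names was not tested.

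Of the members, miR-183-5p and miR-96-5p had a value in all 4 libraries, while miR-182-5p had a value only in replicate 1. Its listed count was the highest of the cluster. The total count lay between 12363104 and 13214969 per library, and 621 of the 746 names had a value in at least 1 library. Cells without a value were blank and none held 0, so a blank is kept apart from a count here. Shares are percentages of the total count of a library.

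The first hairpin of the cluster gave miR-183-5p, for which 50026, 51418, 45818 and 37733 counts were listed in replicates 1 to 4. These were 0.399%, 0.389%, 0.371% and 0.296% of the library, with a mean of 0.364% ± 0.0466 (SD, n = 4). Replicate 4 was the lowest and the other libraries lay close together. The share in replicate 4 had a 95% Wilson interval of 0.293% to 0.299%, which covers counting error only and does not reach the 0.367% at the lower bound of replicate 3. In each library miR-183-5p ranked between 29 and 34 by count. Its percentile among the names listed in a library averaged 93.1 ± 0.725 (SD, n = 4). By summed count it stood at rank 32, between miR-23b-5p with 187826 and miR-181a-5p with 176356.

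The middle hairpin gave miR-96-5p, the member linked to hearing loss. Its counts in replicates 1 to 4 were 7571, 7607, 6854 and 5338. Its share was 0.0604%, 0.0576%, 0.0554% and 0.0419%, with a mean of 0.0538% ± 0.00821 (SD, n = 4). Replicate 4 was again the lowest, and the shares of both miRNAs had the same order over the libraries. It ranked between 75 and 80, and its percentile averaged 82.6 ± 1.19 (SD, n = 4). By summed count it stood at rank 78, between miR-671-5p with 27703 and miR-22-5p with 27320.

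The last hairpin gave miR-182-5p, with 214667 counts in replicate 1 and blanks in replicates 2, 3 and 4. Its share of replicate 1 was 1.71% (95% Wilson interval 1.70% to 1.72%), and it ranked 13 of 456 listed names. There is no replicate of this value. If a blank stood for 0 counts, each of these 3 libraries would allow up to 3 counts, which is 2.27e-05% to 2.43e-05% of the total. Whether the blanks stand for 0 counts, for a value under a limit or for a value that was not written to the table was not tested, and its level in replicates 2 to 4 is unknown. In bulk RNA, fewer cells that carry a miRNA and less of it per cell cannot be told apart, which holds for all values here.

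**Figure D1:**
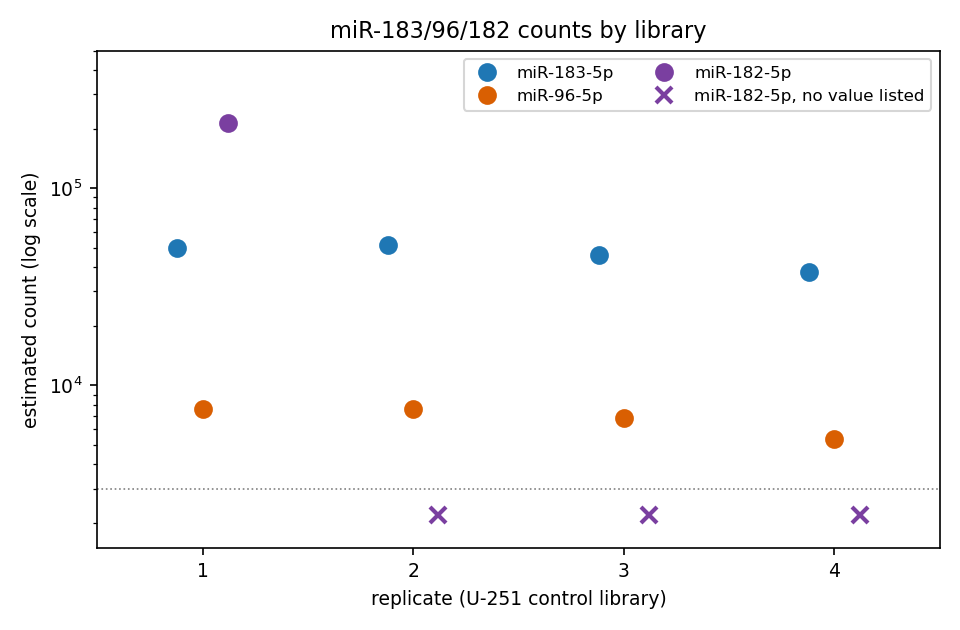
Estimated counts (log axis) of miR-183-5p, miR-96-5p and miR-182-5p in the 4 control libraries of U-251 cells. Each point is the value of 1 library, and crosses under the dotted line mark libraries with no value listed for miR-182-5p, whose only point is the 214667 counts of replicate 1, above all points of the other members.

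Blank cells were common among scarce miRNAs and rare among abundant ones. Of the 621 names with a value in at least 1 library, 312 were blank in 1 to 3 of the libraries (50.2%), as was 1 of the 3 cluster members. When the highest count had to reach 1000, which all 3 members did, 12 of 156 names were blank in some library (7.69%) and 6 had a value in 1 library alone (3.85%). With 3 members these shares allow no statement on the cluster as a whole. Among the 312 names with some blank, miR-182-5p had the highest listed count. The next were miR-24-1-5p with 104745, which was blank in replicate 1, and miR-23a-5p with 96580, which was listed in replicate 2 alone. Replicate 1 held 53 names listed nowhere else, with a median of 7 counts. Of these, only miR-182-5p and miR-132-5p reached 1000 counts, the latter with 1797. Replicates 2 to 4 held 43, 35 and 25 names listed nowhere else, with medians of 6, 5 and 8 counts. Of those, 2, 1 and 1 reached 1000 counts. The names in this comparison other than the members were picked with their values in view.

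**Figure D2:**
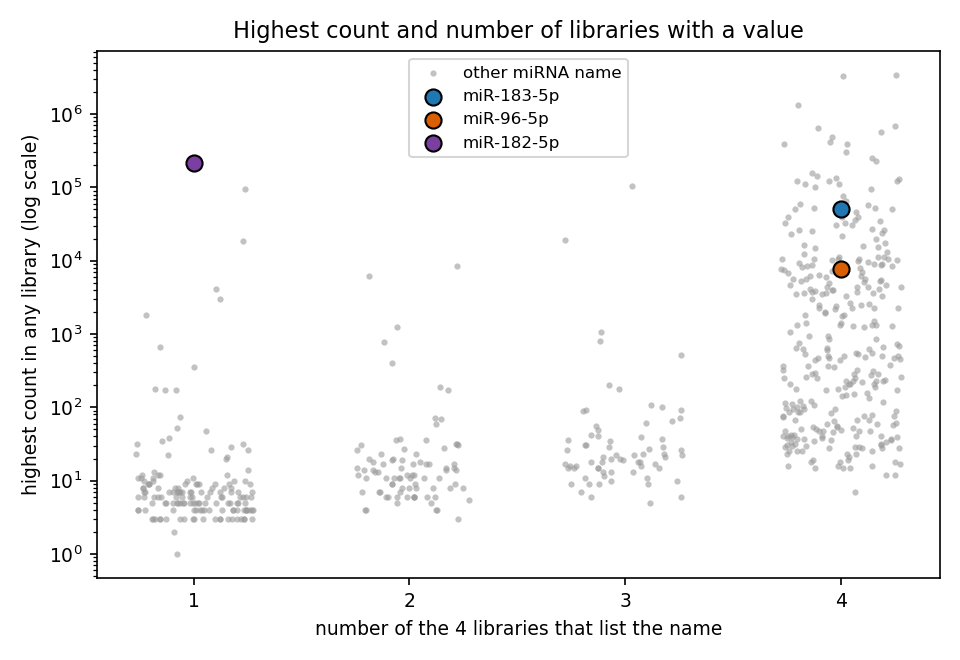
Highest count in any library (log axis) against the number of the 4 libraries that list a name, for 621 miRNA names spread sideways at random for visibility. At 214667 counts miR-182-5p is the highest of the names with a blank, whereas miR-183-5p and miR-96-5p lie among the 309 names with a value in every library.

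The members were next compared with each other within a library, where depth cancels. The count of miR-183-5p was 6.61, 6.76, 6.68 and 7.07 times that of miR-96-5p in replicates 1 to 4. The mean log2 ratio was 2.76 with an SD of 0.0426 (n = 4), so the order of both miRNAs was the same in each library and the ratio changed by 1.07 times between the lowest and highest library. Counting error alone would give an SD of 0.0189. In replicate 1, miR-182-5p had 4.29 times the count of miR-183-5p and 28.4 times that of miR-96-5p. It made up 78.8% of the counts of the cluster there, against 18.4% for miR-183-5p and 2.78% for miR-96-5p. Ratios between names also carry differences in ligation and amplification between sequences, whose part was not tested.

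The steadiness of the ratio of miR-183-5p to miR-96-5p was placed among other miRNAs that share a transcript. Hairpins at most 10 kb apart on the same strand were taken as a polycistron. Over 434 pairs of names from the same polycistron with values in every library, the SD of the log2 ratio had a median of 0.34 and quartiles of 0.22 and 0.54, and 2 pairs had a lower SD than miR-183-5p with miR-96-5p. With at least 1000 counts of both names in every library, 78 pairs remained with a median SD of 0.24, and 0 had a lower one. The next was miR-382-5p with miR-487b-5p, at an SD of 0.0466, and miR-221-5p with miR-222-5p, also neighbours in the genome, had 0.0605. The place of the pair depended on the libraries used. With 1 replicate left out at a time, the SD was 0.0427, 0.0520, 0.0495 and 0.0164 without replicates 1 to 4. A lower one was then found for 14, 11, 10 and 0 of the 434 pairs, and for 5, 4, 2 and 0 of the 78. As the cluster was chosen with these counts known, the place of the pair is a description only. The pairs are not independent, since 55 of the 78 come from the large polycistron on chromosome 14 that begins with miR-379. A small spread was not limited to shared transcripts. Of all 8778 pairs among the 133 names with at least 1000 counts in every library, from the same locus or not, 44 (0.501%) had a lower SD, and the median was 0.33. This share was 3.28%, 2.18%, 1.67% and 0.296% without replicates 1 to 4.

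**Figure D3:**
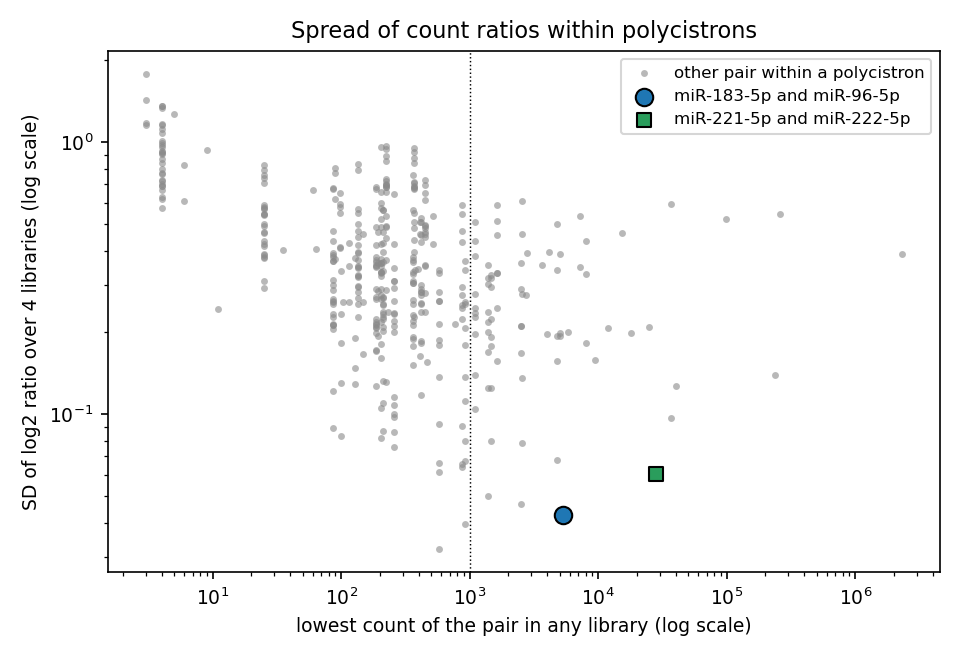
SD of the log2 count ratio over the 4 libraries against the lowest count of the pair in any library (both axes logarithmic), for 434 pairs of miRNAs from the same polycistron, with the dotted line at 1000 counts. Right of the line, the pair of miR-183-5p and miR-96-5p is the lowest point at 0.0426, and the square for miR-221-5p with miR-222-5p lies at 0.0605.

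The miRNAs with the most similar profiles over the libraries were then listed. The measure was the Euclidean distance between log2 shares, each centred on its own mean, over the 4 libraries and the 309 names with a value in every library. It is the same quantity as the SD of a log2 ratio, apart from a constant factor. For miR-183-5p the closest of 308 other names was miR-96-5p at a distance of 0.0737, followed by miR-320d at 0.0969 and miR-585-5p at 0.0997. The median distance was 0.61. The distance to miR-96-5p was 0.0232 without replicate 4 and 0.0603 to 0.0736 without another replicate, and miR-96-5p then stood at place 6, 5, 5 and 1 without replicates 1 to 4. By construction, leaving out a library cannot raise a distance, whereas a place can change in either direction. For miR-96-5p the closest was miR-585-5p at 0.0426, then miR-183-5p at 0.0737 and miR-194-5p at 0.0812, with a median of 0.63. Without replicates 1 to 4, miR-183-5p stood at place 9, 5, 5 and 1 for miR-96-5p. The gene of miR-585 lies on chromosome 5, and miR-96-5p had between 1.92 and 2.00 times its count. Both members were lowest in replicate 4, and names close to them share this by the way they were picked. Of the 280 names with at least 10 counts in every library, 108 were lowest in replicate 4 (38.6%), and 34 had the same order of the 4 libraries by share as both members (12.1%). What sets replicate 4 lower was not tested.

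**Figure D4:**
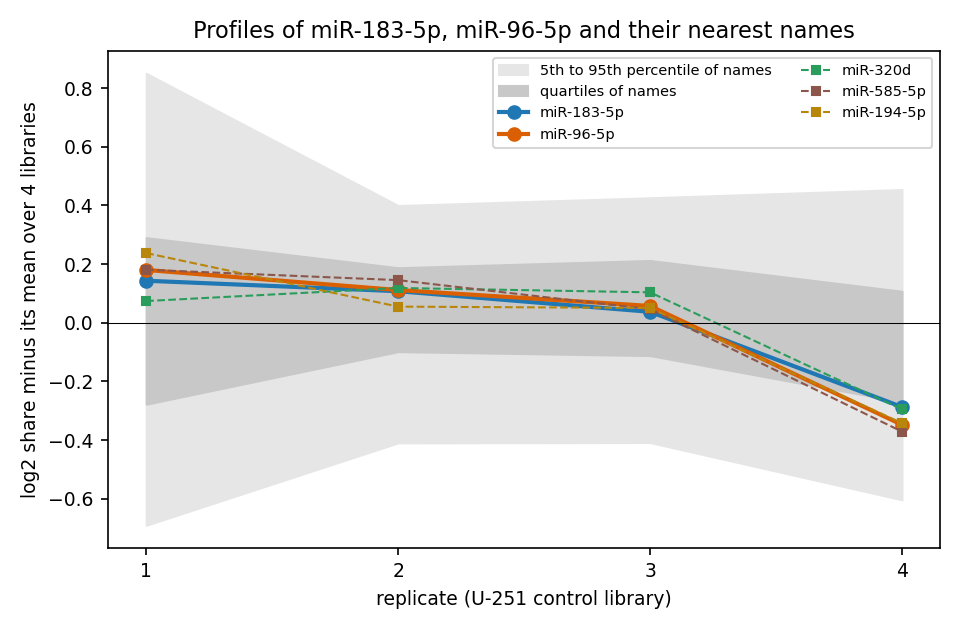
Log2 share minus its mean over the libraries, by replicate, for miR-183-5p, miR-96-5p and the names closest to them, with grey bands for the quartiles and for the 5th to 95th percentiles of 280 names. Lines only join the points of a name, since replicates have no order, and all of the drawn names are lowest in replicate 4, which for the other names follows from their choice.

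Between libraries, the coefficient of variation of the share was 12.8% for miR-183-5p and 15.3% for miR-96-5p. The median over the 280 names was 20.1%, with quartiles of 13.5% and 31.2%. A lower value was found for 21.4% of the names in the case of miR-183-5p and for 32.1% in the case of miR-96-5p. The 280 names were not matched to the members by count and include scarcer names, whose counting error is larger. Together these miRNAs held 0.417% ± 0.0548 (SD, n = 4) of the counts. With miR-182-5p the listed members held 2.17% in replicate 1, against 0.447%, 0.426% and 0.338% in replicates 2 to 4, where only 2 members were listed. The mean of these sums, 0.845% ± 0.885 (SD, n = 4), rests on replicate 1 and was 0.404% without it.

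The spread of levels inside the cluster was set beside that of other polycistrons. The highest listed member had 28.4 times the count of the lowest in replicate 1 and 6.76, 6.68 and 7.07 times in replicates 2 to 4, a mean log2 range of 3.29 ± 1.03 (SD, n = 4). The range covers 3 members in replicate 1 and 2 members in replicates 2 to 4, so this mean and SD mix ranges over different members. Without replicate 1 the mean was 2.77. Of 51 polycistrons with at least 2 names that had a value, 50 gave a range, with a median of 3.12, and 23 lay above the cluster. Polycistrons differed in their number of names, for which the range was not adjusted. A library in which some members had a value and others were blank occurred for 29 of the 51 (56.9%), the cluster of miR-183, miR-96 and miR-182 among them. In 23 polycistrons where at least 2 names reached 1000 counts, it occurred for 9 (39.1%). Among these 23, the median log2 range was 3.82, and 14 lay above the cluster.

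Well-known clusters were listed both in full and in part. Both names of the cluster of miR-221 and miR-222, and both that were found for miR-106b~25, had values in all libraries. In miR-17~92, which promotes cell cycle entry, 4 names were found and miR-18a-5p was listed in replicate 4 alone, with 666 counts. In the cluster of miR-23a, miR-23a-5p was listed in replicate 2 alone, while miR-27a-5p had between 8084 and 10339 counts and miR-24-2-5p between 94306 and 102949. In the cluster of miR-23b, miR-24-1-5p had no value in replicate 1. The highest listed member exceeded the lowest by 19.1 to 56.5 times in miR-17~92 and by 1.82 to 2.43 times in the cluster of miR-23b, and the cluster of miR-183, miR-96 and miR-182 lay above the latter in every library and reached the former in replicate 1 alone.

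The miRNA that shares the seed of miR-96-5p had far lower counts than miR-96-5p. Its counts still lay above 28.8, the median of the mean counts of all 621 names with a value. From a gene on chromosome 5, miR-1271-5p had 161, 369, 275 and 260 counts in replicates 1 to 4, a mean share of 0.00208% ± 0.000623 (SD, n = 4). It was lowest in replicate 1, where miR-96-5p had its highest share. The count of miR-96-5p was 20.5 to 47.0 times that of miR-1271-5p, and its lowest library lay above the highest of miR-1271-5p. Of the 3 names with the same bases 2 to 7, miR-182-5p thus had the highest count in replicate 1, and miR-96-5p had the highest listed count in the other libraries.

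Finally, miRNAs that often accompany the cluster in sensory, neural or epithelial tissue were listed. The names were fixed with the other lists, and the median of their mean counts is given beside that of all 621 names, which was 28.8. For comparison, 309 of all 746 names had values in every library (41.4%). Of 4 sensory and neural names besides miR-96-5p, 2 had values in every library, and the median of the mean counts of the 3 with any value was 4594. Among them, miR-9-5p, a miRNA of neural progenitors, held 1.39% ± 0.437 and miR-204-5p, abundant in the retinal pigment epithelium, held 0.0360% ± 0.00913 (SD, n = 4). In contrast, miR-124-5p, the passenger arm of the main neuronal miRNA, was blank in all libraries, and miR-211-5p had 3 counts in replicate 3 alone. Of 7 epithelial names, 4 had values in every library, 2 were blank in some and 1, miR-203a-5p, was blank in all. None exceeded 248 counts, and the median of the mean counts of those with any value was 55.4. The most abundant was miR-200c-5p, with 167 to 248 counts, although miR-200 miRNAs act mainly through the other arm. The count of miR-183-5p was far above those of the listed epithelial names, which include miR-141-5p with 35 to 51 counts and miR-205-5p with 9 to 66. By name, several of these are not of the main arm of their hairpin. Whether reads of the main arm entered their counts was not tested. The values therefore cannot be taken to compare the cluster with the epithelial miRNAs by their main arms.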

How the data were processed

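The authors sequenced small RNA libraries as single-end reads (QIASeq miRNA kit), made FASTQ files with bcl2fastq 2.20, trimmed adaptors with Trimmomatic, discarded long reads, mapped to hg38 with Bowtie and counted with miRDeep2. The labels instead describe capture of polyadenylated mRNA. The deposited values are unnormalized estimated counts per miRNA name, as 40 names have values that are not whole. The miRNA annotation release is not given in the sources used here.

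Shares, ranks, ratios and distances came from Python 3.11.15 (numpy 2.4.6, pandas 2.3.3, scipy 1.17.1) and plots from matplotlib 3.10.9. Blanks were left out of means. For the alternatives, edgeR 4.0.16 gave TMM and upper-quartile factors and DESeq2 1.42.0 gave size factors (R 4.3.3), from rounded counts of the 280 names with 10 or more counts in every library. Conditions could not be compared, and the members were not tested. Dixon's test for a library that stands apart was run on other named miRNAs. All 6 library pairs differed beyond sampling noise, with chi-square over degrees of freedom of at least 549.9. Hairpin genes were matched by name in GENCODE for 721 names, and mature sequences in the RefSeq table for 674. Polycistrons with the same names were counted once, and a name with several hairpins entered each of its polycistrons. The search for the closest profile and the log2 ratio were tested on simulated counts without blanks, and the grouping of hairpins on made-up positions. The handling of blanks, the ranges within polycistrons and Dixon's test were not tested in this way.

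The members and lists were chosen with earlier results of these data known. Named miRNAs are the members, names with their seed, the 3 closest profiles, neighbours in summed rank, 5 well-known clusters, and lists of 5 sensory or neural and 7 epithelial miRNAs. Others, such as miR-132-5p, miR-134-5p, miR-100-5p, miR-382-5p and miR-487b-5p, were picked with their values in view. Alternatives covered normalization, blanks, filters, the distance between hairpins and leaving out each replicate. Restricting polycistron names or pairs or the sum of the cluster, and leaving out replicates for the spread of pairs, were added after seeing the data.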

Additional observations from a re-analysis of the deposited data

Results flagged for a closer look

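Of 21 named miRNAs other than the cluster members with values in all 4 libraries, 2 had a library whose gap to the nearest of the others, divided by the range, lay beyond the limit of Dixon's test at 95%, where chance gives about 1.05 (1 in 20). The share of miR-19a-5p, of the miR-17~92 cluster, passed at 0.9498, with 0.00671% in replicate 1, while the other libraries lay between 0.00154% and 0.00180%. The share of miR-320d, which was named for its closeness to miR-183-5p in profile, passed at 0.878, with 0.0113% in replicate 4 and the others from 0.0146% to 0.0151%. Since miR-183-5p was itself lowest in replicate 4, names picked by profile are low there by their choice. The chance figure does not hold for them. For neither was a cause tested.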

How the results depend on the processing

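The shares of miR-183-5p and miR-96-5p moved by less than their SD under scaling by TMM, by upper quartiles or by DESeq2, with only names listed in every library as the denominator, and with each replicate left out (0.352% to 0.386% and 0.0516% to 0.0578%). The share of miR-182-5p, 1.71%, rests on replicate 1 and has no value without it. It was 1.75% under TMM, 1.66% under upper-quartile and 1.76% under DESeq2 scaling, and 0.428% with blanks as 0. With blanks set to the limit of 3 counts, the mean log2 ratio of miR-182-5p to miR-183-5p turned from 2.10 to -9.87 and that to miR-96-5p from 4.83 to -7.11, and the log2 range of the cluster rose to 11.6, by construction. That range was 2.77 to 3.47 with one replicate left out, lowest without replicate 1, and was the same with hairpins at most 5 or 50 kb apart. The log2 ratio of miR-183-5p to miR-96-5p stayed between 2.74 and 2.77. Their distance lay between 0.0232 and 0.0736 over 3 libraries, lowest without replicate 4. By construction, none of these values can exceed the distance over all 4 libraries. The sum of the listed members ranged from 0.404% to 1.01%, and was 2.17% in the only library with all 3. The percentile of miR-183-5p became 89.5 and that of miR-96-5p 73.4 among names with at least 10 counts in every library, and 90.5 and 75.9 among names with a value in every library, as scarce names were left out. The 312 names with some blank became 157 with a highest count of at least 10 and 27 with at least 100. No paired analysis was possible because there is only 1 group. Over 4 libraries, and 1 for miR-182-5p, spreads are known only roughly.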

Other observations

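Further abundant names with blanks, picked with their values in view, were miR-100-5p, with 18887, 16080 and 11922 counts in replicates 2 to 4 and a blank in replicate 1, and miR-134-5p, with 18453 counts in replicate 3 alone. With miR-182-5p, miR-24-1-5p and miR-23a-5p they are the 5 names with some blank among the 73 that reached 10000 counts in a library. The blanks of these 5 fell on all 4 replicates. No explanation of these blanks was tested.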
